A study of Mus musculus with 6 samples.

Results

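The genes described here encode the proteins with which a cell detects nucleic acid in its cytosol upstream of interferon. They were measured in splenic naive B cells of mice labelled TET2 knockout and TET2 wild type. They were chosen by name as DNA and RNA sensors, adaptors and nucleases, with earlier results of these data known. They are Mb21d1, Tmem173, Ddx58, Ifih1, Mavs, Tbk1, Irf3, Zbp1, Samhd1 and Trex1, 10 of the 41053 gene names in the count table. Of these, 9 had counts and passed the filter on low counts, and Trex1 stood at 0 in every library. TET2 is an enzyme that oxidizes methylated cytosine in DNA. RNA was sequenced from naive B cells of spleens of the C57BL/6 strain, in 3 libraries with the genotype TET2 knockout and 3 with TET2 wild type, numbered 2, 3 and 4 in each, and the labels name no treatment. Age, sex, the deleted part of Tet2, any Cre line and whether each library came from its own mouse are not stated in the labels, so each p-value reflects library-to-library spread, part of which may be technical.

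Cytosolic DNA is bound by cGAS (encoded by Mb21d1), which makes a cyclic dinucleotide that activates the membrane protein STING (Tmem173). Viral or other double-stranded RNA is bound by the helicases RIG-I (Ddx58) and MDA5 (Ifih1), which act through the mitochondrial adaptor MAVS. Both routes meet at the kinase TBK1, which phosphorylates the transcription factor IRF3 and so starts transcription of type I interferon. The nuclease TREX1 and the nucleotide hydrolase SAMHD1 limit the nucleic acid that can be sensed, and ZBP1 binds Z-form nucleic acid and can start cell death. Several of these genes, among them Ddx58, Ifih1 and Zbp1, are themselves known to be induced by interferon.

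Promoter sequences are shown because interferon-inducible genes often hold a known type of control element. The windows were taken from RefSeq (GRCm38.p6) and run from 250 bases before to 50 bases after each annotated start. A window was found for 8 of the 10 genes, with 2 windows for Trex1, and none was found for Tmem173 and Zbp1. The core of the interferon-stimulated response element, GAAA, 2 bases of any kind and GAAA again, was searched on both strands. These letters were present in the windows of Ddx58 and Ifih1 and of no other member with a window. Tmem173 and Zbp1 could not be searched. The letters were present in 3.44% of all 32851 windows and in 3.99% of the 27025 genes with a window. The matches, in capitals within 30 bases of the gene's own strand, were the following.
Ddx58 (chr4:40239804-40239833, minus strand, GRCm38.p6): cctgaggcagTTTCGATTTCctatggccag
Ifih1 (chr2:62646206-62646235, minus strand, GRCm38.p6): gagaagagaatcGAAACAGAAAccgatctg
The match in Ddx58 covers bases 3 to 12 of the transcribed strand, counted from 1 at the start site, and lies on the opposite strand. That in Ifih1 covers bases 33 to 42. A second element, GAS (TTC, 3 bases of any kind and GAA), was also searched. Of the members with a window it matched in Samhd1 alone, at bases -235 to -227, and it was present in 8.3% of all windows and 9.55% of genes. A match describes letters only.

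The 250 bases before the start also differ in CpG, the dinucleotide at which most cytosine methylation of mammalian DNA lies. Ddx58 has 12 CpGs there, Ifih1 11, Mb21d1 9, Irf3 16, Mavs 15, Samhd1 26, Tbk1 31 and the 2 windows of Trex1 7 and 4, where the median over all windows is 6. Methylation was not measured in the data used here. Of these genes, 3 are shown with each CpG in capitals, the helicase gene Ddx58, which holds the element above, and Samhd1 and Tbk1, the members with the most CpGs.
Ddx58 (chr4:40239826-40240075, minus strand, GRCm38.p6): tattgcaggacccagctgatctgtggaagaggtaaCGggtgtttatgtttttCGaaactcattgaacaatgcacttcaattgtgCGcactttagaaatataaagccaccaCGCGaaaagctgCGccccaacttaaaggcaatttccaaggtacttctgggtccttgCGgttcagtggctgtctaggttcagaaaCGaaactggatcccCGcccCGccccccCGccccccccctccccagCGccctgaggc
Samhd1 (chr2:157135097-157135346, minus strand, GRCm38.p6): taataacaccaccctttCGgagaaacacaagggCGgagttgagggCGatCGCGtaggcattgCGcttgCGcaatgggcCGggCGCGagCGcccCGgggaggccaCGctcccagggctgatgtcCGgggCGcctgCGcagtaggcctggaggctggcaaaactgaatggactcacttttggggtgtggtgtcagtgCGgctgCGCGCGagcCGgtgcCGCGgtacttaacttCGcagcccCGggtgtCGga
Tbk1 (chr10:121586795-121587044, minus strand, GRCm38.p6): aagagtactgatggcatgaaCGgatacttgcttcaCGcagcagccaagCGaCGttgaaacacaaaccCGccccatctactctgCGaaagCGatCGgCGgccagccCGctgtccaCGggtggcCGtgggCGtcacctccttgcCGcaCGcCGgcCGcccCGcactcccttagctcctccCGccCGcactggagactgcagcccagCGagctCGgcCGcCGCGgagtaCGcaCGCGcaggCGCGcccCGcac

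Library totals ranged from 35101788 to 45401781 counts. In both genotypes the library numbered 4 was set apart on PC2 of log2 CPM (30.3% of the variance), while PC1 (39.4%) separated the genotypes. CPM is the count scaled to the library total, here after TMM normalization. The 8 B cell markers analysed here summed to 20080 to 23400 CPM in knockout, against 18890 to 20220 CPM in wild type. Of the 8 lists of other cell types, 6 T cell markers summed to 0.607 to 1.11 CPM in knockout, against 0.453 to 0.591 CPM in wild type, and neutrophil markers to at most 0.457 CPM, with Elane at 0. Monocyte and macrophage markers summed to 20.4 to 29.5 CPM in knockout, against 22.7 to 25.9 CPM in wild type, dendritic cell markers to 6.48 to 7.52 and 5.34 to 6.75 CPM. Plasma cell markers had the largest sum of the other types, 147.8 to 170.8 CPM in knockout, against 128.3 to 167.6 CPM in wild type. Among them Xbp1, most of that sum, stood at 126.9, 118 and 127.2 CPM in knockout, against 108.3, 115.5 and 150.2 CPM in wild type. Igj, the joining chain of secreted antibody, stood at 32.9, 21.3 and 11.1 CPM in knockout, against 7.95, 13.3 and 4.91 CPM in wild type. Sdc1 did not follow it, at 8.969, 8.884 and 7.834 against 9.58, 8.39 and 9.965 CPM. Nor did Prdm1, at 2.021, 2.022 and 1.617 against 2.446, 1.592 and 2.513 CPM. Natural killer cell markers summed to 1.34 to 2.19 and 1.83 to 1.93 CPM, and platelet markers to 1.64 to 2.50 and 1.97 to 3.08 CPM with Gp1bb at 0. Erythroid markers summed to 9.63 to 16.5 and 7.88 to 21.4 CPM, highest in the library numbered 4 of each genotype. No tested marker was called, where 0.404% of all tested genes were. Markers removed by the filter on low counts could not be called. Only 1 of 6 T cell, 2 of 5 natural killer, 0 of 6 neutrophil and 1 of 5 platelet markers were tested. Tested too were 5 of 7 monocyte and macrophage, 5 of 7 dendritic, 4 of 5 plasma cell, 5 of 6 erythroid and all 8 B cell markers. The part of these levels in the results was not tested. In bulk RNA, fewer cells of a type and less RNA per cell cannot be told apart. Tet2 itself stood at 59.4, 64.8 and 50.04 CPM in knockout, against 74.7, 83.3 and 56.8 CPM in wild type, which does not check the labels because the labels do not say which exons were deleted. Y-linked Kdm5d was at 23.3 to 34.9 CPM in knockout, against at most 0.0571 CPM in wild type. Xist stood at 852, 887 and 802 CPM in knockout, against 1537, 1488 and 1443 CPM in wild type. The fitted Xist level in knockout was 56.9% of wild type (edgeR adjusted p = 0.00251). Each knockout library thus held both Y-linked transcripts and Xist, and the labels do not say whether mice were pooled. Genotype and sex-linked transcripts cannot be told apart in any comparison below.

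Per exon length, the sensing genes spanned more than 2 orders of magnitude in these B cells. The unit is RPKM, the CPM divided by the summed exon length in kilobases, and the range over the 6 libraries is given for each. SAMHD1, which destroys deoxynucleotides, had the most transcript (83.9 to 128 RPKM), followed by STING (Tmem173, 74.8 to 92.8 RPKM), and their ranges overlapped although Samhd1 was the higher in 6 of 6 libraries. Irf3 followed at 48.6 to 59.4 RPKM, Tbk1 at 32.3 to 34.7 RPKM and Ddx58 at 26.8 to 32.1 RPKM, each apart from its neighbours above. Zbp1 (14.2 to 32.7 RPKM) and Mavs (14.8 to 24.7 RPKM) were not separable from each other, and Zbp1 overlapped Ddx58. The lowest were Ifih1 at 0.619 to 0.976 RPKM and Mb21d1 at 0.391 to 0.692 RPKM, which overlapped.

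The order of levels left both routes with an unequal pair. Of the RNA helicases, Ddx58 was above Ifih1 by 43.4, 43.5 and 41.7 times in wild-type libraries 2, 3 and 4 and by 32.5, 35.9 and 39.9 times in knockout, on the RPKM scale. In the DNA route, the Tmem173 level was 109 to 151 times that of Mb21d1 in wild type and 127 to 238 times in knockout. In rank, Samhd1 stood at the 96.9th percentile of mean RPKM among tested genes and Tmem173 at the 95.7th, whereas Ifih1 stood at the 18.9th and Mb21d1 at the 15.5th. Summed exon length includes exons of all annotated isoforms, which lowers the RPKM of genes with long alternative exons.

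**Figure D1:**
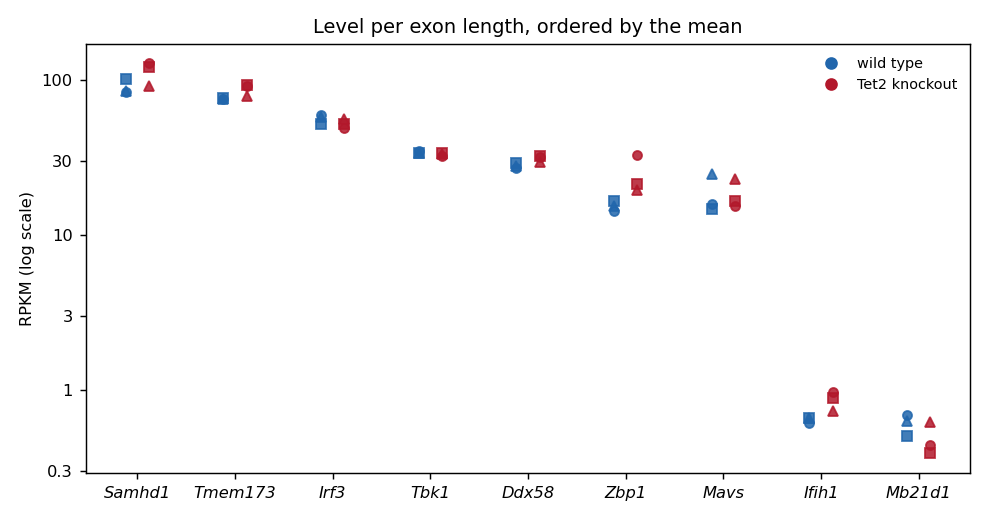
Level of each of the 9 measured genes in RPKM (log axis), ordered by the mean over 6 libraries; each point is 1 library, circles, squares and triangles stand for libraries 2, 3 and 4. Mavs and all genes above it lie at 14.2 RPKM or more, and Ifih1 and Mb21d1 at 0.976 RPKM or less.

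Knockout was compared with wild type to ask whether the machinery that starts interferon transcription differs in level between the genotypes. No member passed the threshold (edgeR's quasi-likelihood test over 13604 genes, adjusted p under 0.05), where 0.404% of all tested genes were called, 0.184% higher and 0.221% lower. Of the 9 tested members, 5 had a positive log2 difference, as 48.8% of all tested genes did, and 4 a negative one, with a median of 0.16 against -0.01 over all tested genes. In 4 members, Tmem173, Ddx58, Ifih1 and Zbp1, every knockout library lay above every wild-type library, a separation seen upward in 10.2% of all tested genes, and in 0 members downward, against 8.28%. An unadjusted p under 0.05 was found for those 4 and for Samhd1, in 5 of 9 members and all upward, where 7.85% of all tested genes had such a p upward. DESeq2 called 1 member higher, where it called 1.45% of all tested genes higher and 1.12% lower. Limma-voom called 0 members, where it called 20 of all tested genes higher and 25 lower.

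**Figure D2:**
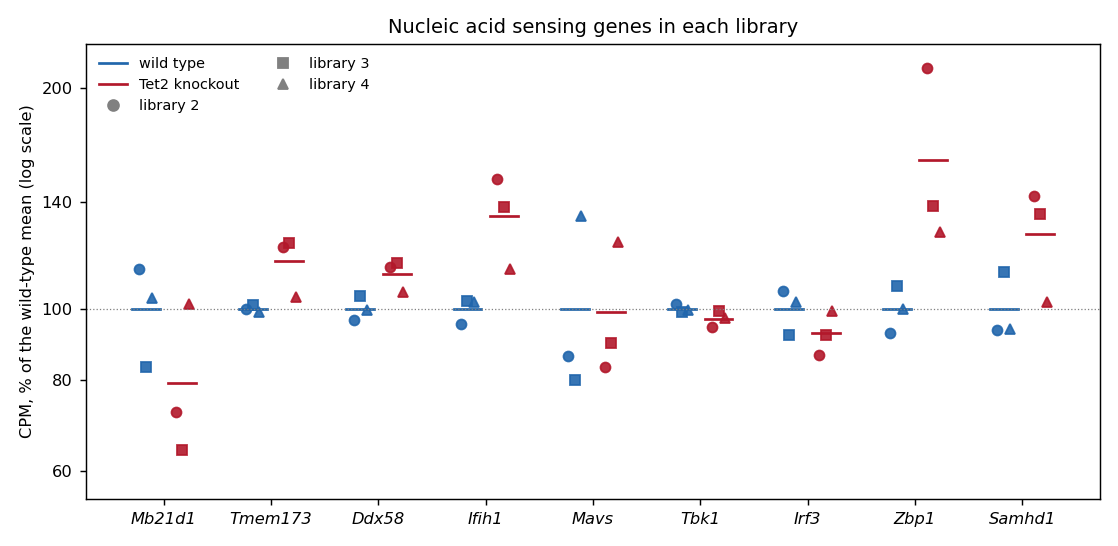
CPM of each gene in each library as a percent of its wild-type mean (log axis), wild type in blue and knockout in red, with short lines for group means and a symbol for each library number. Zbp1 reaches 213% in knockout library 2, and the triangles of the libraries numbered 4 stand above the other symbols for Mavs in both genotypes.

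Zbp1, the sensor of Z-form nucleic acid, had the largest difference among the members. The gene lies on chromosome 2 (173206612 to 173218923, minus strand, GRCm38, the build of all coordinates of genes here) and was counted over 3529 exon bases. It stood at 116, 74.9 and 68.9 CPM in the knockout (libraries 2, 3 and 4), against 50.2, 58.2 and 54.1 CPM in wild type. All knockout libraries lay above all wild-type libraries, with library 2 well above the others. The plasma cell marker Igj was also highest in knockout library 2, whereas Sdc1, Prdm1 and Xbp1 of the same list were highest in wild-type library 4. The part of plasma cells in the Zbp1 levels was not tested. The fitted ratio was 1.60-fold, a log2 difference of 0.68 (SE 0.18, 95% interval 0.28 to 1.07), which edgeR did not call (adjusted p = 0.176). Without knockout library 2 the log2 difference was 0.41 (edgeR adjusted p = 0.411). DESeq2 called it higher (log2 0.67, DESeq2 adjusted p = 0.0148). The log2 difference was 0.78 between the libraries numbered 2 and 3 and 0.35 within the pair numbered 4.

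Zbp1 also varied most over the libraries, with a range of 1.20 in log2 CPM. The 5 genes whose centred log2 CPM lay nearest to that of Zbp1 over the 6 libraries were Irgm2, at a root mean square distance of 0.04, Serpinb9 at 0.06, Gbp5 at 0.07, Lamp3 at 0.08 and Psmb9 at 0.08. Irgm2 and Gbp5 are GTPases of cell-autonomous defence, Serpinb9 inhibits granzyme B, Lamp3 is a lysosomal membrane protein and Psmb9 is a subunit of the immunoproteasome. They were chosen for this likeness over the same libraries, so their values are a description. Irgm2 stood at 79.0, 52.4 and 50.5 CPM in knockout, against 36.3, 39.9 and 38.8 CPM in wild type.

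Of the RNA sensors, Ifih1 differed more than Ddx58, and neither was called by the main fit. Ifih1, which encodes MDA5 (chromosome 2, 62595798 to 62646255, minus strand), was at 7.97, 7.29 and 6.01 CPM in knockout, against 5.05, 5.43 and 5.42 CPM in wild type, from 190 to 351 counts a library. The knockout libraries lay above wild type, with library 4 nearest to it. The ratio was 1.34-fold (log2 0.42, SE 0.15, 95% interval 0.09 to 0.76, edgeR adjusted p = 0.292). Ddx58, which encodes RIG-I (chromosome 4, 40203773 to 40239828, minus strand), was at 224, 226 and 207 CPM in knockout, against 189, 204 and 195 CPM in wild type. These also did not overlap, and the gap was narrow. The log2 difference of Ddx58 was 0.16 (SE 0.07, 95% interval 0.00 to 0.32, edgeR adjusted p = 0.367).

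MAVS, the adaptor of both helicases, varied more with the library number than with the genotype. Mavs (chromosome 2, 131234063 to 131248025, plus strand) was at 51.5, 55.5 and 76.3 CPM in the knockout (libraries 2, 3 and 4), against 53.3, 49.4 and 82.6 CPM in wild type. The libraries numbered 4 were the highest in both genotypes, and the groups overlapped. The log2 difference between genotypes was -0.02 (SE 0.21, 95% interval -0.50 to 0.47, edgeR adjusted p = 0.985). Its sign turned in 7 of 16 other settings, and it was 0.06 in the libraries numbered 2 and 3 and -0.12 in the pair numbered 4.

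In the DNA route, Tmem173 was at 211, 214 and 181 CPM in knockout, against 174, 176 and 172 CPM in wild type. The wild-type libraries lay within 4 CPM of each other, and knockout library 4 stood close above them. The log2 difference was 0.22 (SE 0.08, 95% interval 0.04 to 0.39, edgeR adjusted p = 0.309). The gene of the DNA sensor cGAS, Mb21d1 (chromosome 9, 78430526 to 78443237, minus strand), had 80, 67 and 101 counts in knockout and 126, 92 and 91 in wild type, or 1.82, 1.61 and 2.55 CPM against 2.85, 2.09 and 2.60 CPM. The groups overlapped through knockout library 4. The log2 difference of -0.34 had a wide interval (SE 0.23, 95% interval -0.86 to 0.18, edgeR adjusted p = 0.554). Of the 4126 exon bases of Mb21d1, 201 are shared with Gm8093 on the opposite strand, and fragments within them were counted for neither gene. Gm8093 had 2 to 21 counts a library.

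The kinase and the transcription factor on which both routes converge differed little between the genotypes. Tbk1 (chromosome 10, 121546455 to 121586794, minus strand) was at 98.0, 103 and 101 CPM in knockout, against 105, 102 and 103 CPM in wild type, a log2 difference of -0.04 (95% interval -0.19 to 0.10, edgeR adjusted p = 0.784). Irf3 (chromosome 7, 44997648 to 45002848, plus strand) was at 155, 165 and 178 CPM in knockout, against 189, 165 and 183 CPM in wild type, a difference of -0.11 (95% interval -0.30 to 0.07, edgeR adjusted p = 0.578). In both genes the groups overlapped. The range over all 6 libraries was 0.10 in log2 CPM for Tbk1, the smallest of the 9 measured members, and 0.29 for Irf3, near the 0.26 of Ddx58. In Irf3, 88 of 3187 exon bases are shared with Bcl2l12 on the opposite strand.

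Samhd1, the most abundant member (chromosome 2, 157097533 to 157135265, minus strand), was at 1167, 1104 and 836 CPM in knockout, against 768, 920 and 770.0 CPM in wild type. Knockout libraries 2 and 3 stood above all others, and library 4 lay below wild-type library 3, so the groups overlapped. The fitted ratio was 1.26-fold (log2 0.34, SE 0.13, 95% interval 0.04 to 0.64, edgeR adjusted p = 0.328).

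**Figure D3:**
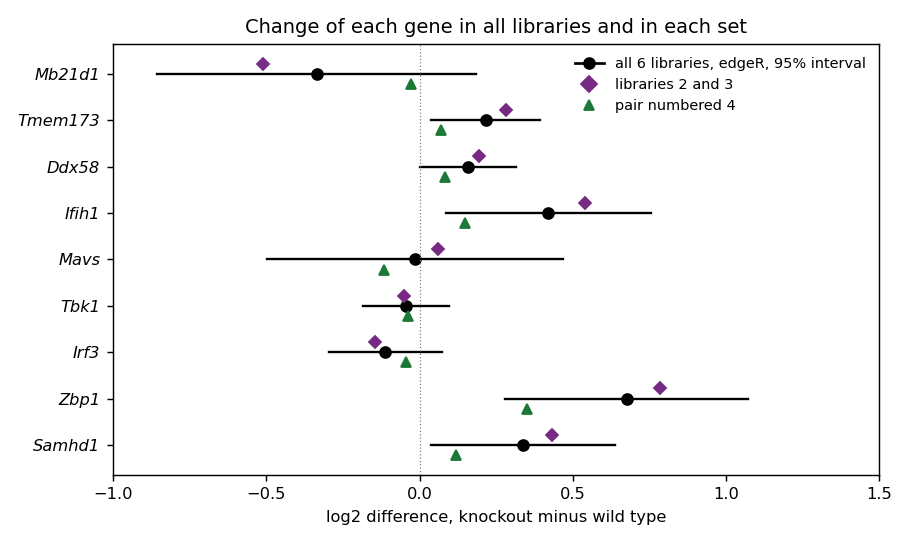
Log2 difference, knockout minus wild type, for each gene: black points with 95% intervals are the edgeR fit to all 6 libraries, purple diamonds the difference of mean log2 CPM in the libraries numbered 2 and 3, green triangles that within the pair numbered 4. For Tmem173, Ddx58, Ifih1, Zbp1 and Samhd1 the diamond lies to the right of the triangle.

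These differences were larger in the libraries numbered 2 and 3 than in the pair numbered 4. For Tmem173, Ddx58, Ifih1 and Samhd1 the log2 difference was 0.28, 0.20, 0.54 and 0.43 in the libraries numbered 2 and 3, and 0.07, 0.08, 0.15 and 0.12 in the pair numbered 4. A fit to libraries 2 and 3 alone called these 4 genes higher (edgeR adjusted p = 0.00192, 0.0242, 0.0125 and 0.00275), and it called 13.6% of all tested genes higher and 10.4% lower. With a term for the libraries numbered 4, 0 members were called (edgeR adjusted p from 0.0611 for Samhd1 upward), where 2.59% of all tested genes were called higher. Whether the difference between the sets of libraries exceeds their spread was not tested.

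Trex1, the exonuclease that degrades cytosolic DNA, had 0 counts in all 6 libraries, and this is no measure of its transcript. All 1314 of its exon bases (chromosome 9, 109057933 to 109060338, minus strand, GRCm38) lie within exons of Atrip on the same strand, and the command line in the file header sets no option that would count a fragment in more than 1 gene. Of the 41053 gene names in the table, 696 have no exon base of their own, and 696 of these 696 stood at 0 in all libraries. Of the gene names that have exon bases of their own, 17338 of 40357 were at 0. Atrip, a cofactor of the DNA damage kinase ATR, was counted over its other exons, at 29.3, 29.0 and 28.1 CPM in knockout, against 33.5, 31.9 and 29.4 CPM in wild type (log2 -0.13, edgeR adjusted p = 0.519). The groups of Atrip did not overlap, by a narrow gap, a separation seen downward in 8.28% of all tested genes.

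**Figure D4:**
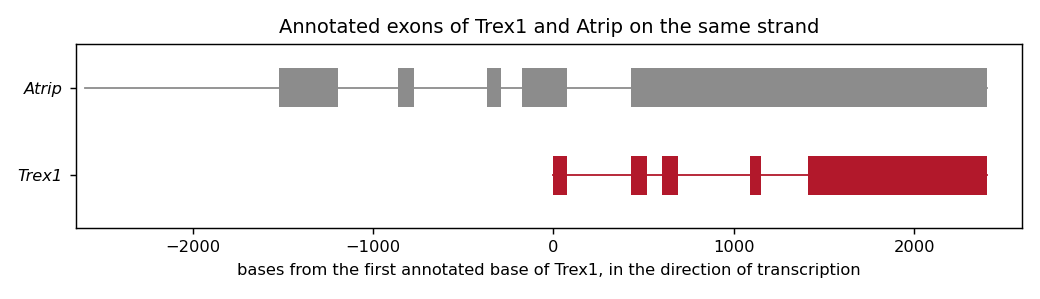
Annotated exons (boxes) of Trex1 in red and of Atrip in grey, in bases from the first base of Trex1 in the direction of transcription; Atrip continues to the left of the window. Each of the 5 Trex1 boxes falls inside an Atrip box, so that 0 of its 1314 exon bases belong to Trex1 alone.

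The products of the route were looked for next. Of 21 interferon genes, 18 had 0 counts in all libraries, among them Ifnb1, the main target of IRF3, and all 13 numbered interferon alpha genes. A count of 0 allows up to 3 counts, or 0.0679 to 0.0857 CPM in these libraries, for counting error only. The interferon alpha genes are near-identical copies whose reads can map to several places, so their level is uncertain. Ifnk had 5, 1 and 1 counts in knockout and 0, 0 and 2 in wild type, and Ifnz had 1 count in all. Ifng, which encodes interferon gamma, had 15, 10 and 7 counts in knockout and 6, 7 and 12 in wild type, with overlapping groups.

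The rest of the pathway was described from 7 lists, also chosen with earlier results of these data known. They hold 118 genes other than the members, of which 115 were tested. No gene of these was called, where 0.404% of all tested genes were, and 72 had a positive and 43 a negative log2 difference, with a median of 0.06. An unadjusted p under 0.05 was found for 18 upward and 3 downward, against 7.85% and 5.51% of all tested genes. DESeq2 called 6 of them higher, against 1.45% of all tested genes. Of these 6, Oas1a, Oas3, Oasl2, Ifit1 and Isg15 are also interferon targets, and Banf1 is not. With a term for the libraries numbered 4, 7 were called higher and 0 lower, against 2.59% and 1.81%. Interferon targets that stand in these lists are among those genes too. Of all tested interferon targets that fit called 11 higher, 7 of them outside these lists. An unadjusted p under 0.05 was found upward for 17 interferon targets, 10 of them outside these lists.

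Among 19 other RNA sensors and their cofactors, 15 had a positive difference, with a median of 0.15. Oas3, a synthetase that activates RNase L, came nearest to the threshold, at 33.7, 32.9 and 29.0 CPM in knockout, against 19.5, 20.9 and 23.4 CPM in wild type (log2 0.59, edgeR adjusted p = 0.0598). The related Oas1a was at 14.5, 15.6 and 14.9 CPM against 8.36, 10.2 and 11.0 CPM (log2 0.61, edgeR adjusted p = 0.114). In both, every knockout library lay above every wild-type library, a separation seen upward in 10.2% of all tested genes. Both genes were named for the smallest p of their list. With a term for the libraries numbered 4 both were called higher (edgeR adjusted p = 0.00859 and 0.0165), and 5 genes of the list in all, where 2.59% of all tested genes were called higher and 1.81% lower. The Oas genes form a family of similar sequences, and Oas3 and Oas1a are also interferon targets.

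The 26 tested genes of other DNA sensors and cofactors had a median of 0.02, with 15 positive. Pqbp1, which binds reverse-transcribed DNA together with cGAS, differed by 0.24 (edgeR adjusted p = 0.250), and G3bp1, a stress granule protein that assists cGAS, by 0.20 (edgeR adjusted p = 0.325). Pqbp1 was called higher with a term for the libraries numbered 4 (edgeR adjusted p = 0.0454). The 21 adaptors, kinases and transcription factors had 10 positive and 11 negative differences, with a median of -0.00. Irf1, an interferon regulatory factor, was at 336, 217 and 236 CPM in knockout, against 169, 208 and 166 CPM in wild type (log2 0.54, edgeR adjusted p = 0.224). Ep300, an acetyltransferase that works with IRF3, differed by -0.19 (edgeR adjusted p = 0.305).

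Among 13 other nucleases and related genes, 8 were positive with a median of 0.08. Banf1, which coats DNA and keeps cGAS from it, was at 105, 103 and 95.7 CPM in knockout, against 71.7, 77.4 and 85.6 CPM in wild type. The groups did not overlap (log2 0.38, edgeR adjusted p = 0.133), a separation seen upward in 10.2% of all tested genes. Banf1 was called higher with a term for the libraries numbered 4 (edgeR adjusted p = 0.0216). The lysosomal nuclease gene Dnase2a differed by 0.22 (edgeR adjusted p = 0.267), with 70.01% of its exon bases its own. In the list of STING trafficking and cyclic dinucleotide handling, 12 of 18 were positive with a median of 0.06. There Surf4, which retrieves STING from the Golgi, differed by 0.17 (edgeR adjusted p = 0.353), and Enpp1, which hydrolyses the cyclic dinucleotide, by -0.20 (edgeR adjusted p = 0.390).

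The 13 negative regulators had 8 positive members and a median of 0.16. Isg15, a ubiquitin-like modifier, was at 14.4, 12.7 and 11.7 CPM in knockout, against 5.57, 7.05 and 10.4 CPM in wild type (log2 0.76, edgeR adjusted p = 0.204). Pcbp2, which promotes loss of MAVS, differed by 0.24 (edgeR adjusted p = 0.253), with 37.5% of its exon bases its own. Of the 7 genes of the cell death branch of ZBP1, 6 were positive, with a median of 0.10. Fadd, a death domain adaptor, differed by 0.25 (edgeR adjusted p = 0.385) and the kinase gene Ripk1 by 0.17 (edgeR adjusted p = 0.421). Mlkl, the executioner of necroptosis, was low, at a mean of 0.751 CPM in knockout, against 0.525 CPM in wild type. Its groups overlapped (log2 0.53, edgeR adjusted p = 0.489), and it was chosen after its values were seen.

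**Figure D5:**
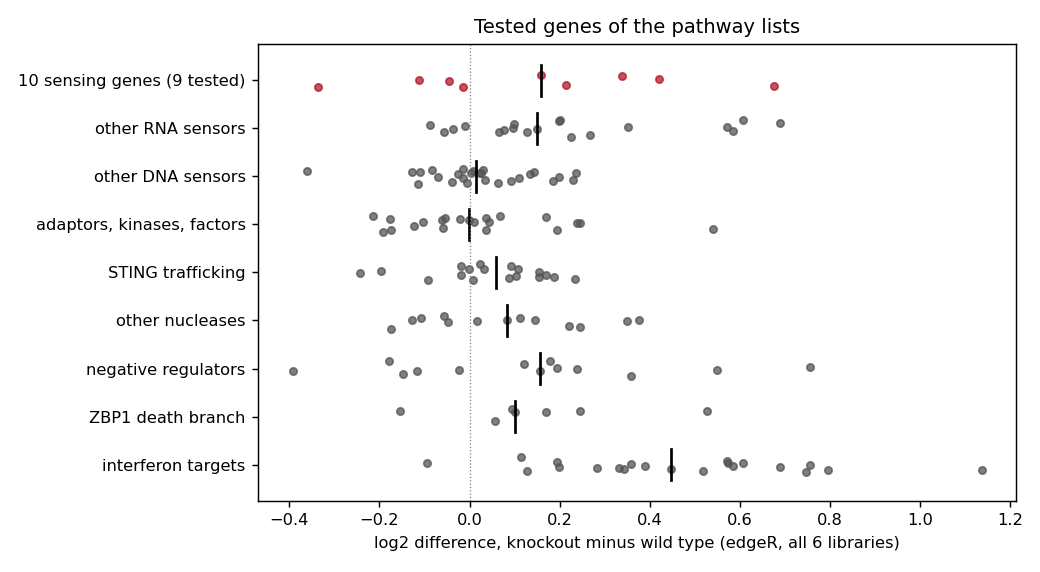
Log2 difference, knockout minus wild type, of each tested gene in the 9 sensing genes, the 7 other pathway lists and the interferon targets, with black bars at the medians; vertical scatter within a row has no meaning. Medians run from -0.00 for the adaptors, kinases and factors to 0.45 for the interferon targets, and Ifi44, at 1.14, is the point farthest to the right.

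The list of interferon targets was chosen with earlier results of these data known. Its shares below are therefore a description and not independent support. Of 21 tested interferon targets, 20 had a positive difference, as 48.8% of all tested genes did, with a median of 0.45. That median was 0.55 in the libraries numbered 2 and 3 and 0.24 in the pair numbered 4. An unadjusted p under 0.05 was found upward for 17 and downward for 0, against 7.85% and 5.51% of all tested genes. In 15 every knockout library lay above every wild-type library, against 10.2%. DESeq2 called 11 higher and 0 lower, against 1.45% and 1.12%. With a term for the libraries numbered 4, 11 were called higher and 0 lower, against 2.59% and 1.81%. Ifi44, an interferon-induced gene, was at 23.3, 19.6 and 16.5 CPM in knockout, against 6.93, 10.9 and 9.17 CPM in wild type. It was the 1 gene of the list called by the main edgeR fit, where 0.184% of all tested genes were called higher (log2 1.14, edgeR adjusted p = 0.0432). The call was kept with DESeq2 (DESeq2 adjusted p = 1.305e-06) and with a term for the libraries numbered 4 (edgeR adjusted p = 0.01835). The call of Ifi44 was lost with a filter of 1 CPM (edgeR adjusted p = 0.0611) and with limma-voom (limma-voom adjusted p = 0.0509). It was also lost without knockout library 2 (edgeR adjusted p = 0.249), knockout library 3 (0.136), wild-type library 2 (0.151) or wild-type library 3 (0.0649). Of the 21, 9 also stand in the pathway lists above, and the remaining 12 had a median of 0.42.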

How the data were processed

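The values are the authors' deposited counts, whole-number fragments per gene name without normalization. Per the file headers, featureCounts 1.5.1 assigned read pairs to the exons of GENCODE vM3 on GRCm38, with no option for strand or for fragments that overlap several genes. STAR 2.3.0e and GRCm38.p3 are named in the submitters' processing notes. The library kit is stranded, per the labels, but the counting did not use the strand. Fragments within exon bases shared by several genes, on either strand, were therefore assigned to none of them. Another 6 columns of counts match no sample used here and were left out.

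Genes were filtered with filterByExpr (minimum count 10), scaled by TMM and tested with edgeR's quasi-likelihood F test (edgeR 4.0.16, R 4.3.3), robust, with no covariate, over all 6 libraries, with Benjamini-Hochberg adjustment over 13604 genes and a threshold of 0.05. Intervals use the fit's standard error. Log2 CPM used a prior count of 0.5. Exon overlap was computed from the deposited exon coordinates. The members and lists were chosen with earlier results of these data known. The other pathway genes named were, in each list, the called genes with the smallest p (up to 4), or the 2 smallest where none was called. The genes nearest to the member with the widest range over the libraries were taken by the smallest distance, leaving out receptor segments and unnamed clones. DESeq2 1.42.0, limma-voom (limma 3.58.1), other scalings and filters, a replicate block, a term for the libraries numbered 4, libraries 2 and 3 alone, removal of Y-linked genes with Xist, and leaving out each library were tried as alternatives.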

Additional observations from a re-analysis of the deposited data

How the results depend on the processing

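Among the 16 alternatives, no member was called lower, and members were called higher by DESeq2 (1) and in libraries 2 and 3 alone (4). Tmem173, Ddx58, Ifih1, Zbp1 and Samhd1 kept a positive and Mb21d1, Irf3 and Tbk1 a negative log2 difference in all 16. All 16 refit the same libraries or part of them, so a kept sign is not independent support. Leaving out Y-linked genes and Xist does not separate genotype from sex-linked transcripts. Mavs turned positive with limma-voom (0.010), the replicate block (0.00017), a term for the libraries numbered 4 (3.33e-05) and libraries 2 and 3 alone (0.060), and ranged from -0.21 to 0.25 when 1 library was left out; the cause was not tested. Zbp1 ranged from 0.41 to 0.82. Over all genes, 25 were called higher and 30 lower. These counts were 160 and 102 without the filter, 197 and 152 with DESeq2, 353 and 246 with a term for the libraries numbered 4, and 1871 and 1436 in libraries 2 and 3 alone. With 1 library left out they ran from 9 to 630 and from 8 to 270, highest without wild-type library 4. Of the other pathway genes, 0 were called with all libraries. Called higher were 5 without the filter, 6 with DESeq2, 7 with a term for the libraries numbered 4 and 28 in libraries 2 and 3 alone, where 9 were lower. With 1 library left out, 0 to 9 were higher and 0 to 2 lower. The replicate block, by library number, gave 35 genes higher and 50 lower, and called 0 members. Deviations from the group means of same-numbered libraries correlated by 0.086, 0.209 and 0.379 for numbers 2, 3 and 4, and knockout 2 and wild-type 2 each correlated best with another number than its own, so the numbers were not taken to pair the samples.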

Other observations

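Genes other than Trex1 also lost exon bases to neighbours. In the pathway lists, Lrrc8a kept 31.7% of its exon bases as its own, Pcbp2 37.5%, Ripk1 61.7% and Dnase2a 70.01%, so their counts come from part of each gene.

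Hmgb1, which encodes a chromatin protein that also binds cytosolic DNA, had differences of opposite sign in the sets of libraries. It stood at 44.2, 47.4 and 74.4 CPM in the knockout (libraries 2, 3 and 4), against 72.9, 76.6 and 63.3 CPM in wild type. The log2 difference was -0.71 in the libraries numbered 2 and 3 and 0.23 in the pair numbered 4, and -0.36 over all (edgeR adjusted p = 0.426). Hmgb1 and Lrrc8a were picked with their values in view, and the difference between the sets was not tested.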
